A study of Mus musculus with 3 samples.

Results

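Foxp3+ regulatory T cells were followed in the blood of young and aged mice. A droplet barcode counted as a member when it held RNA of the T-cell receptor complex (at least 1 UMI over Cd3d, Cd3e and Cd3g), at least 1 UMI of Foxp3, no UMI of Cd8a or Cd8b1 and at most 1 UMI of the B-cell gene Cd79a. A UMI, or unique molecular identifier, marks 1 captured RNA molecule. Barcodes were kept from 500 UMIs and 250 genes up, if mitochondrial UMIs were no more than 10%. Of 31064 kept barcodes 13209 were T barcodes and 187 were members. The members were thus chosen by their measured Foxp3, Cd3, Cd8 and Cd79a UMIs, so the levels of Foxp3, the Cd3 genes, Cd8a, Cd8b1 and Cd79a are given below as descriptions.

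Regulatory T cells are CD4 T cells that restrain the activation of other lymphocytes, and mice without them develop fatal autoimmunity. The transcription factor Foxp3, encoded on the X chromosome, maintains their gene programme, and interleukin-2 sustains them through the high-affinity receptor chain CD25, encoded by Il2ra, and the signal transducer STAT5. They act in part through the surface protein CTLA-4, which removes costimulatory ligands from antigen-presenting cells. In blood and lymphoid organs, central regulatory T cells share receptors and transcription factors with naive T cells, whereas effector regulatory T cells carry genes of activated cells and tissue homing. Demethylation of a conserved intronic element of Foxp3 by TET enzymes, whose activity ascorbic acid supports, stabilises Foxp3 expression.

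Mononuclear cells from the peripheral blood of C57BL/6 mice had been made into 3 libraries, one for each group. One group was young and received PBS for 1 month. Of the aged groups, one received PBS and the other AA over the same time, and the title of the series gives AA as ascorbic acid. The labels name no number of mice per library, no age in months and no sex, so pooling of animals is unknown. The young library gave 81 members, the aged library 68 and the aged+AA library 38, with 354262, 392079 and 181665 UMIs in all and medians of 3632, 4599.5 and 3840.5 UMIs per member. Both comparisons, aged over young and aged+AA over aged, share the aged library. With 1 library per group neither has a replicate check, and no test was made between libraries. Intervals between libraries are exact 95% intervals and cover counting error only.

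The start-site sequence of the gene that defines the members is shown first, beside that of Il2ra, whose RNA was not used to choose them. Both are the 250 bases before a RefSeq transcription start on GRCm38.p6. The Foxp3 window (the second of 2 listed start sites) lies at chrX:7580233-7580482 on the plus strand and the Il2ra window at chr2:11642542-11642791 on the plus strand. Capitals mark a match to the STAT-type motif TTCNNNGAA, searched on both strands. The pattern, though not the marked letters themselves, is the same on both strands, so both strands match at the same bases, 139 to 131 before the start.
Foxp3: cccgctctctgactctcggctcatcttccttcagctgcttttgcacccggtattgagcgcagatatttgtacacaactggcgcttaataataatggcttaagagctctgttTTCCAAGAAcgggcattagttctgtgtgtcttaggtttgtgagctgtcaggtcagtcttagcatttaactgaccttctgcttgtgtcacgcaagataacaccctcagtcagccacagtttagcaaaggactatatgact
Il2ra: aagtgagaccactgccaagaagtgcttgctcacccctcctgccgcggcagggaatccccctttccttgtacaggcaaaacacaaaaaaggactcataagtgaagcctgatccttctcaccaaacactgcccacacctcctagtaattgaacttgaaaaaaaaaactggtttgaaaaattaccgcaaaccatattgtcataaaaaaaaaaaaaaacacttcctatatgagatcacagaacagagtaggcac
Of 32851 RefSeq start-site windows of this length, 7.02% held that motif, 14.05% the Runx-type motif TGTGGT and 3.17% the forkhead-type motif TGTTTAC. Neither printed window held the Runx or forkhead letters, and the Il2ra window held none of the 3 motifs. The other listed Foxp3 window, at chrX:7579426-7579675, is not printed and also held none of them. A match is a description of letters and shows no binding.

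The members were checked against regulatory T-cell markers that the choice had not used. Of 187 members, 178 held at least 1 UMI of Il2ra, Ikzf2, Ctla4 or Izumo1r. The young, aged and aged+AA shares of members with a Ctla4 UMI were 77.8%, 89.7% and 78.9%, against 1.23%, 2.32% and 1.51% of B barcodes, which should lack it. Izumo1r, which encodes folate receptor 4 of regulatory T cells, was seen in 55.6%, 60.3% and 63.2% of members. Ikzf2, the gene of the transcription factor Helios, was seen in 50.6%, 80.9% and 63.2% of members and in 0.0411%, 0.478% and 0.403% of B barcodes. All 3 libraries therefore held members with marker RNA far above the level in B barcodes. Foxp3- CD4 T cells, compared below, held these markers too, so a single UMI of them does not mark a member. Ctla4 stood at 663, 701 and 468 CPM in members against 85.6, 165 and 121 CPM in those cells. Izumo1r stood at 237, 288 and 336 CPM against 75.4, 126 and 117 CPM. All 10 T-cell genes of the marker list had UMIs in each library, with a summed level of 6292, 6216 and 7040 CPM (each count divided by all UMIs of the members and scaled to 1 common total), while a Cd4 UMI was seen in 75 of 187 members.

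Foxp3 itself gave 132, 118 and 62 UMIs, which is 373 CPM (312 to 442) for young members, 301 CPM (249 to 360) for aged ones and 341 CPM (262 to 438) for aged+AA ones. Without the mixed members described below the levels were 381, 396 and 357 CPM, so the order of the libraries differed. Exactly 1 Foxp3 UMI was found in 126 members and 2 or more in 61. At the edges of the rule, 6 members had a single Cd3 UMI and 8 a single Cd79a UMI. Just outside it stood 17 Foxp3+ barcodes with 1 Cd8 UMI, 13 with 2 or more, 32 with 2 or more Cd79a UMIs and 4 without a Cd3 UMI. Since 1 UMI decides most memberships, a Foxp3-expressing cell that yielded no Foxp3 UMI counts as Foxp3-. No Foxp3 UMI was found among 2432 young B barcodes, which allows a share of up to 0.152% (exact binomial), and 1 barcode held one among 4390 aged (0.0228%) and 4960 aged+AA (0.0202%) B barcodes.

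RNA of other cell types was uneven over the members and is given before the comparisons. In the aged library 8 members held 5 or more UMIs of the lysozyme gene Lyz2, and 3 more had over 10% haemoglobin UMIs. One young member passed that haemoglobin limit, and 1 aged+AA member held at least 100 UMIs of the immunoglobulin gene Igkc. These 13 are called mixed below, a rule set after the data were seen, and the other 174 members (80 young, 57 aged and 37 aged+AA) give the values stated as without mixed members. The 10 monocyte markers summed to 274, 6012 and 479 CPM in young, aged and aged+AA members, with 6, 10 and 6 genes detected. Without mixed members they summed to 277, 746 and 494 CPM, with 6, 8 and 6 detected. Neutrophil markers stood at 8.47, 1097 and 11.01 CPM, and at 8.73, 208 and 11.9 CPM without mixed members. B-cell markers stood at 251, 2395 and 7123 CPM, and at 256, 1354 and 833 CPM without mixed members. NK markers stood at 203, 905 and 418 CPM, and at 210, 304 and 452 CPM without mixed members. Gamma-delta T markers stood at 33.9, 38.3 and 27.5 CPM, and basophil and platelet markers were at 0 in young and aged+AA members. Ribosomal protein genes took 33.7%, 21.4% and 27.9% of the members' UMIs and mitochondrial genes 4.84%, 2.41% and 3.83%. The estimated share of free RNA was 1.05%, 2.36% and 2.34%. Library totals ranged from 64496639 to 94944551 UMIs over all barcodes, the 3 pairs of libraries shared 27 to 33 kept barcode sequences, and no shared one was a member. The part of these differences in the results below was not tested, except where values without mixed members are given.

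The first comparison asked how common Foxp3+ T cells were among T cells in each library. They made up 1.42% (1.13 to 1.77%) of 5692 young T barcodes, 2.59% (2.02 to 3.28%) of 2622 aged T barcodes and 0.776% (0.550 to 1.06%) of 4895 aged+AA T barcodes. The aged share was the highest, the aged+AA share the lowest, and no pair of the 3 intervals overlapped. The aged over young ratio was 1.82 (1.30 to 2.55) and the aged+AA over aged ratio 0.299 (0.196 to 0.452). Among T barcodes without a Cd8 UMI the shares were 2.35%, 4.23% and 1.66%, with ratios of 1.80 (1.29 to 2.52) and 0.392 (0.256 to 0.591). Without mixed members the shares of T barcodes were 1.43%, 2.58% and 0.797%.

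The order of the young and aged libraries depended on the denominator. T barcodes were fewer in the aged library, and the members' shares of all kept barcodes were 0.886%, 0.666% and 0.324% in the order young, aged and aged+AA, an aged over young ratio of 0.753 (0.537 to 1.05). Among T barcodes with a Cd4 UMI the shares were 2.02%, 6.17% and 1.89%, a ratio of 3.06 (1.77 to 5.41) for aged over young. With each barcode thinned to 1000 UMIs, which sets depth equal, the shares of T barcodes were 0.518%, 0.879% and 0.278%. The thinned aged over young ratio of 1.70 had an interval of 0.953 to 3.09, which includes 1. The aged+AA share was the lowest of the 3 on every one of these denominators. A share of barcodes does not tell whether members were more numerous or other T cells fewer.

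**Figure D1:**
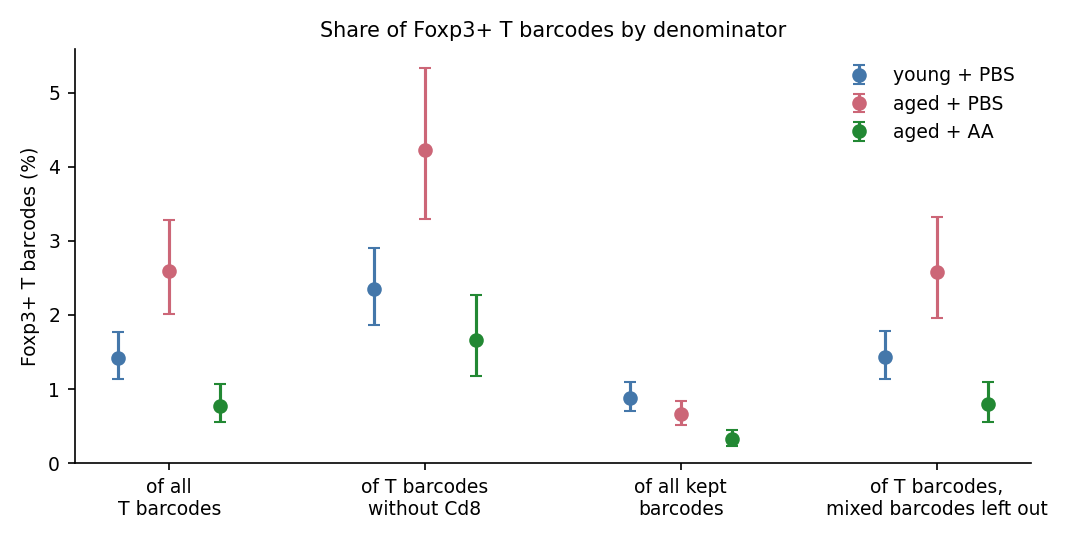
Share of Foxp3+ T barcodes (y axis, percent) in the young (blue), aged (red) and aged+AA (green) libraries on 4 denominators along the x axis, with exact binomial 95% intervals for counting error. The aged point is the highest among T barcodes (2.59%) and the second among all kept barcodes (0.666%), and the aged+AA point is the lowest in each set.

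The next comparison asked what set the members apart from other CD4 T cells of the same blood. The counterpart was 2385 Foxp3- barcodes (1067 young, 593 aged and 725 aged+AA) with a Cd4 UMI, no Cd8 UMI and at most 1 Cd79a UMI. Counts were summed per library into 3 sums of members and 3 of counterparts and tested with edgeR's quasi-likelihood test, library being a block and p-values adjusted over 8115 genes by the Benjamini-Hochberg method. Members had 239 genes higher (2.95% of those tested) and 184 lower (2.27%) at an adjusted p under 0.05. This test asks what the members share over 3 libraries of differing condition, and its spread comes from 2 residual degrees of freedom shared over genes. Without mixed barcodes 254 were higher (3.27%) and 219 lower (2.82%), and 376 of these 473 were among the 423. With counterparts matched in UMIs per barcode, 179 were called, of which 171 were among the 423. Without the aged library 169 were called, and 150 of them were among the 423, and without the aged+AA library 203 were higher and 105 lower.

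Of the 20 tested genes of the regulatory T-cell identity list, 17 were higher in the members and none lower (median log2 difference 2.14, against -0.02 over all genes tested). The strongest call was Ikzf2, at 361 CPM in young, 885 in aged and 595 in aged+AA members, against 16.4, 122 and 72.2 CPM in Foxp3- cells. Its log2 difference was 3.18 (SE 0.208, edgeR adjusted p = 1.61e-09), and the members were higher in each library. Foxp3- cells with an Ikzf2 UMI numbered 35 of 1067 (3.28%) for the young, 137 of 593 (23.1%) for the aged and 116 of 725 for the aged+AA library. Il2ra stood at 113, 71.4 and 82.6 CPM against 3.86, 4.43 and 2.16 CPM, a log2 difference of 4.48 (SE 0.337, edgeR adjusted p = 8.7e-09). Lrrc32, the gene of GARP, which docks latent TGF-beta on the cell surface, gave 73.4, 71.4 and 60.6 CPM against 2.02, 1.36 and 1.35 CPM. Its log2 difference of 5.18 (SE 0.408, edgeR adjusted p = 1.38e-08) was the widest among the identity genes called. Ctla4 differed by 2.16 (SE 0.167, edgeR adjusted p = 1.11e-08), at 663, 701 and 468 CPM against 85.6, 165 and 121 CPM. The costimulatory receptors of the TNF receptor family Tnfrsf4 (OX40) and Tnfrsf18 (GITR), which are neighbours on chromosome 4 at 156013843 to 156016612 and 156026164 to 156028895 of mm10, differed by 2.26 and 1.67 (edgeR adjusted p = 3.13e-06 for both). Among the other receptors, Il2rb (the shared beta chain of the interleukin-2 and interleukin-15 receptors) differed by 1.82 and Nrp1 (neuropilin-1) by 2.01, Gpr83 by 2.87 and Tnfrsf9 (4-1BB) by 3.28. Izumo1r differed by 1.26, Ikzf4 (the transcription factor Eos) by 2.55, the actin-capping protein gene Capg by 1.68 and Swap70 by 2.68. Icos, an inducible costimulator, missed the threshold with a log2 difference of 0.52 (edgeR adjusted p = 0.0912), as did Nt5e, the gene of the adenosine-forming ectoenzyme CD73, with 0.76 (edgeR adjusted p = 0.0588), and Entpd1, the gene of the ectonucleotidase CD39, with 1.59 (edgeR adjusted p = 0.139).

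**Figure D2:**
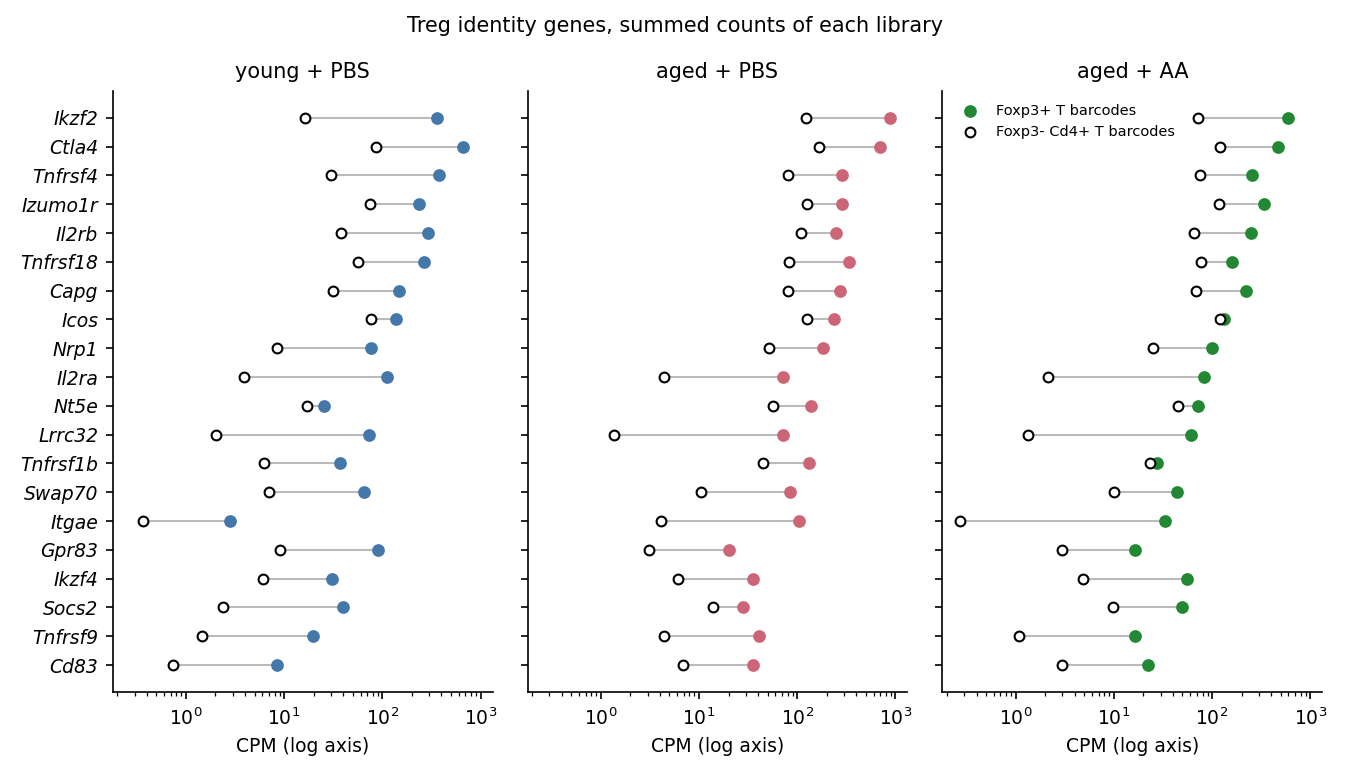
Level of 20 regulatory T-cell identity genes in CPM (x axis, log scale) in Foxp3+ T barcodes (filled points) and Foxp3- Cd4+ T barcodes (open points) of each library, one gene per row and one panel per library. Filled points lie to the right of the open ones throughout, as for Ikzf2 at 361 against 16.4 CPM in the young library, and Icos and Tnfrsf1b nearly coincide in the aged+AA panel.

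Genes of the effector state were also higher in members than in Foxp3- cells, with 16 of 26 tested list members higher and none lower (median log2 difference 0.93). S100a4, a calcium-binding protein of motile and memory T cells, stood at 477, 2454 and 1431 CPM against 84.4, 611 and 412 CPM, a log2 difference of 1.89 (SE 0.140, edgeR adjusted p = 8.7e-09). S100a10, the annexin A2 partner, differed by 1.35 (edgeR adjusted p = 2.27e-07) and S100a6 by 1.40. Klrg1, a receptor of terminally differentiated lymphocytes, differed by 4.34 (edgeR adjusted p = 2.27e-07), but its UMIs came from 3 young, 11 aged and 2 aged+AA members, 1 of which held 12 of the 21 young UMIs. The transcription factor gene Gata3, also used by type 2 helper cells, differed by 1.00, and Rora, a nuclear receptor gene, by 0.81. Itgb1 (log2 difference 0.42) and Maf (0.29) did not pass. In the list of suppressive effectors 4 of 12 tested genes were higher and none lower, among them Lgals1, the gene of galectin-1, with a difference of 1.14, and Areg, which encodes the growth factor amphiregulin, with 3.43 (edgeR adjusted p = 0.000123).

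Central-state genes, which naive T cells share, were lower in members, with 9 of 18 lower and 1 higher. Igfbp4, a binding protein of insulin-like growth factors, was lowest by rank, at 138, 25.5 and 116 CPM against 515, 386 and 471 CPM (log2 difference -2.60, SE 0.228, edgeR adjusted p = 8.89e-08). The naive T-cell transcription factors Tcf7 and Lef1 differed by -1.48 and -1.20 (edgeR adjusted p = 3.74e-06 and 8.7e-06), and Il7r, the interleukin-7 receptor chain on which naive T cells depend, by -0.87 (edgeR adjusted p = 0.000107). Dapl1 stood at 53.6, 0 and 0 CPM in members against 280, 38.9 and 103 CPM in Foxp3- cells. The genome organiser Satb1 differed by -1.01, the lymph-node homing receptor Ccr7 by -0.57 and the survival gene Bcl2 by -0.89 (edgeR adjusted p = 0.000393, 0.0287 and 0.0249). In the young library members and Foxp3- cells were close, at 452 against 458 CPM for Ccr7 and 359 against 362 CPM for Bcl2. The aged values were 153 against 281 and 112 against 481 CPM, and the aged+AA values 347 against 449 and 385 against 459 CPM. The only higher member of the list was Cd27, a costimulatory receptor of the TNF receptor family, with 0.81 (edgeR adjusted p = 0.00402). The other genes with the smallest p among lower calls were Gtf2i (-1.64), Actn1 (-1.80), Pde3b (-2.05), Fam78a (-1.85) and Tdrp (-3.84), each lower in all 3 libraries.

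Of 33 tested interferon response genes 7 were higher and none lower. Samhd1, Ifi27l2a, Ly6e and Irf1 were higher in members in each library. Ifitm3, also called, had 11 young, 419 aged and 2 aged+AA UMIs in members, with 9 aged UMIs left without mixed members. In the aged+AA library Ifitm3 was lower in members than in Foxp3- cells, at 11.01 against 43.91 CPM. Ifitm2, called too, had 4, 112 and 4 UMIs, the young and aged+AA ones each from 1 member. Among 28 Foxp3 cofactors Gata3 and Ikzf3 were higher and 1 was lower. Among 14 genes of interleukin-2 and STAT5 signalling 5 were higher and 2 lower. Of 24 genes of ascorbate transport and ascorbate-dependent dioxygenases 2 were higher: P4ha1, a subunit of collagen prolyl hydroxylase, at 87.5, 107 and 110 CPM against 34.6, 43.3 and 42.3 CPM (log2 difference 1.15, edgeR adjusted p = 0.000669), and the transporter gene Slc2a3, with 1.63 (edgeR adjusted p = 0.00643). None of 12 heat shock genes passed. Of 25 immediate early genes 3 were higher and 1 lower, and of 16 homing receptors 2 each way. Among 6 tested genes of the inhibitory receptor list, Ctla4 and the transcription factor gene Tox were higher. Of 8 tested genes of the T helper list (median log2 difference -0.78) Gzma was higher and Ccl5 and Ifng were lower. Most Gzma UMIs sat in 1 member per library (37/39 young, 40/46 aged, 19/22 aged+AA), so this call rested on few barcodes. Ccl5 was lower in the aged and aged+AA libraries but not in the young one, at 373 against 363 CPM. In that library 1 member held 127/132 Ccl5 UMIs. Of 14 cell cycle genes 2 were higher, H2afz by 0.81 and Mki67 by 2.26. Mki67 was carried by a single young member with 23 UMIs, 11 aged members with 22 UMIs, and 1 aged+AA UMI.

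The members of the 3 libraries were then compared with each other, gene by gene. A CPM ratio of aged over young lay at 1.25 for the median of 2563 genes with at least 50 UMIs, and at 0.981 for aged+AA over aged. Ratios below are therefore centred, that is, divided by the ratio of the median gene. On this scale 478 genes (18.7%) were past 1.5-fold higher and 472 (18.4%) past 1.5-fold lower in aged over young members, and 308 (12.0%) higher and 446 (17.4%) lower in aged+AA over aged members. Without centring the aged over young split was 861 higher and 244 lower. Without mixed members 2145 genes had 50 UMIs, of which 388 (18.1%) were higher and 379 (17.7%) lower in aged over young, and 247 (11.5%) higher and 313 (14.6%) lower in aged+AA over aged. Among Foxp3- cells, with 8729 genes at 50 UMIs, the shares were 15.3% higher and 12.7% lower in aged over young and 7.02% higher and 9.02% lower in aged+AA over aged. These counts describe 3 libraries and say nothing of the spread between mice. Gene lists are given by their median log2 centred ratio over members with at least 20 UMIs. The 5177 genes with that many UMIs had uncentred medians of 0.36 (aged over young) and -0.05 (aged+AA over aged), so a list median between -0.36 and 0 for aged over young turns positive without centring. Of these genes 23.0% were past 1.5-fold higher and 19.9% lower in aged over young, against 15.5% and 23.0% in aged+AA over aged. Without mixed members the shares among 4520 such genes were 18.5% and 21.1%, and 16.5% and 20.5%.

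The genes of effector regulatory T cells stood higher in aged than in young members. Of 25 measured members of this list (34 in all), 22 lay above the median gene and 18 were past 1.5-fold higher, with none past it lower and a list median of 1.18. Without mixed members 22 of 24 lay above it and the median was 1.09. S100a6 stood at 610, 3576 and 1624 CPM in young, aged and aged+AA members, a centred ratio of 4.70 (4.07 to 5.45) for aged over young and 5.04 without mixed members. Its UMIs came from 13 young, 54 aged and 14 aged+AA members, and the interval leaves out the spread between members. S100a4 at 477, 2454 and 1431 CPM had a ratio of 4.13 (3.50 to 4.89), and 4.08 without mixed members. The aged library was the highest of the 3 for both genes, with the aged+AA library between. Itgb1, the beta-1 integrin chain of memory T cells, stood at 133, 546 and 479 CPM (ratio 3.30, 2.40 to 4.63). Maf, a transcription factor of interleukin-10-producing T cells, stood at 62.1, 281 and 143 CPM (ratio 3.62, 2.28 to 6.02). The ratios were 4.02 for Itgb1 and 4.08 for Maf without mixed members. Cxcr3, the homing receptor of type 1 responses, was at 0 UMIs in young, 38 in aged and 19 in aged+AA members. With the young count set to a floor of 3 it was 9.18-fold higher in aged members, and the exact 95% lower limit was 7.11. Rora had a ratio of 1.90, S100a10 of 2.34 and S100a11 of 2.42, and Gata3 lay on the other side at 0.809. Lgals3 and Vim had 8.70 and 1.498 with all members but 2.02 and 1.08 without the mixed ones.

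In aged+AA over aged members 21 of 25 effector genes lay below the median gene and 10 were past 1.5-fold lower (none higher), with a list median of -0.49, and -0.44 without mixed members. S100a6 had a ratio of 0.463, S100a4 of 0.595 (0.517 to 0.683), S100a10 of 0.669 and Maf of 0.520 (0.325 to 0.803). Itgb1 at 0.894 and Rora at 0.985 stayed near the median gene, and without mixed members Itgb1 had 0.681. The CPM of the 3 S100 genes and of Maf in aged+AA members thus lay between the young and the aged values. In Foxp3- cells the effector list also lay higher in aged over young (median 1.98) and lower in aged+AA over aged (median -0.40). Both directions were thus shared with other CD4 T cells.

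Central-state genes had the opposite pattern. Of 17 measured members of the list (18 in all), 15 lay below the median gene in aged over young members and 12 were past 1.5-fold lower, none higher, with a median of -1.26, and -1.09 without mixed members. Satb1 stood at 661, 148 and 297 CPM, a ratio of 0.180 (0.132 to 0.240), and Igfbp4 at 138, 25.5 and 116 CPM, a ratio of 0.148 (0.0668 to 0.296). Ccr7, whose receptor brings T cells into lymph nodes, stood at 452, 153 and 347 CPM, a ratio of 0.272 (0.199 to 0.368). Klf2, the transcription factor that maintains quiescence and drives egress from lymphoid organs, stood at 1708, 890 and 1651 CPM (ratio 0.418). Lef1 had 0.419, Tcf7 0.523, Il7r 0.430 and Foxp1, which holds T cells in quiescence, 0.482. Bach2, a repressor of effector programmes, stood at 116, 30.6 and 99.1 CPM (ratio 0.212, 0.102 to 0.411). Each of these was lowest in the aged library. Cd27, at 152, 293 and 253 CPM, was higher in the aged library, with a ratio of 1.54 that is under 1.5-fold, and so not in the count above, when centred on the genes with at least 20 UMIs.

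Between the aged libraries 13 of 17 central genes had an aged+AA over aged ratio above the median gene, 9 past 1.5-fold higher and 2 lower, with a median of 0.61, and 0.59 without mixed members. Igfbp4 had a ratio of 4.62 (2.08 to 10.99), Bach2 of 3.30 (1.504 to 7.51), Ccr7 of 2.31 (1.60 to 3.35) and Satb1 of 2.05 (1.39 to 3.02). Klf2 had 1.89, Tcf7 1.86, Lef1 1.57 and Il7r 1.47. The aged+AA level of each of these genes lay between the aged and the young level in CPM, except for Tcf7, at 254, 166 and 303 CPM. Bcl2, which protects T cells from apoptosis, stood at 359, 112 and 385 CPM in members, with ratios of 0.251 (0.174 to 0.356) and 3.50 (2.37 to 5.23). In Foxp3- cells it stood at 362, 481 and 459 CPM, with ratios of 1.07 and 1.01. Foxp3- cells had central list medians of -0.67 and 0.29.

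**Figure D3:**
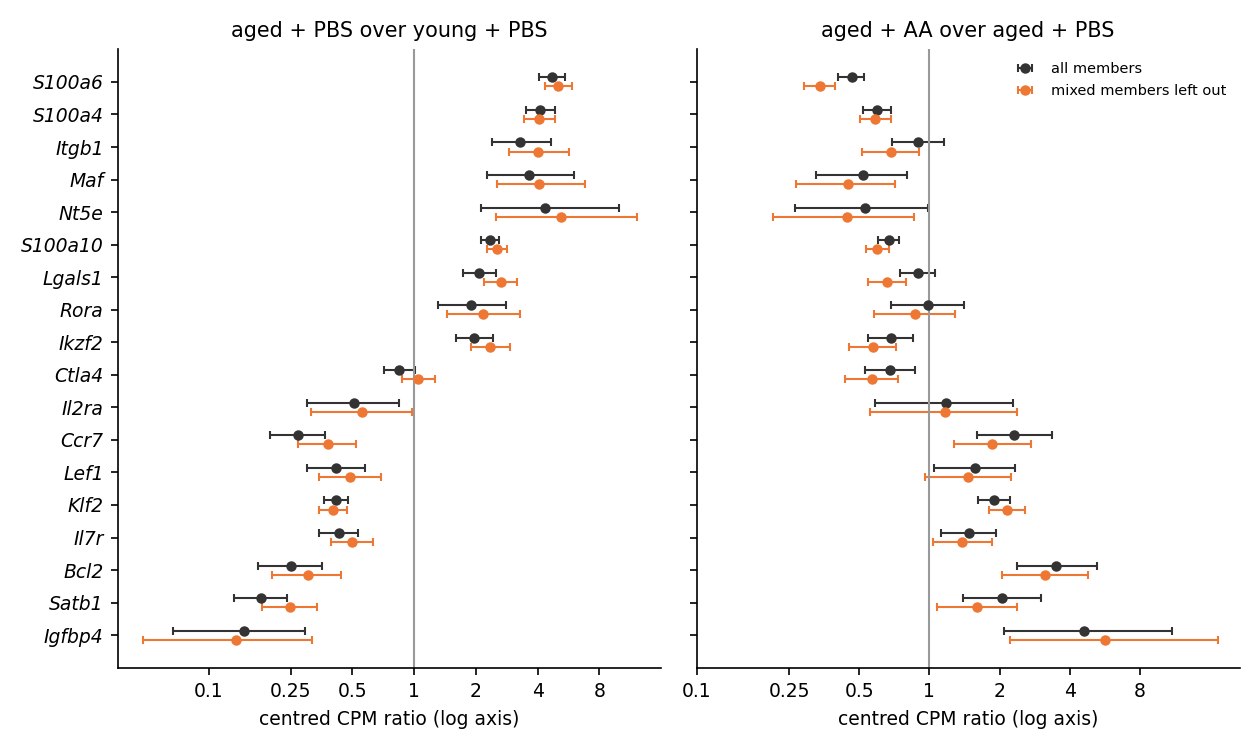
Centred CPM ratio (x axis, log scale, 1 being the median gene) of 18 genes in Foxp3+ T barcodes for aged over young (left) and aged+AA over aged (right), with exact conditional 95% intervals for counting error, for all members (black) and without the 13 mixed ones (orange). From S100a6 to Ikzf2 points lie right of 1 on the left panel, and from Il2ra to Igfbp4 left of it, with most on the other side of 1 in the right panel.

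The 2 lists were also read within single members, as UMIs per 10000. The effector sum had a median of 19.0 (range 0 to 265) for young, 196 (0 to 469) for aged and 54.4 (4.18 to 386) for aged+AA members. The central sum had a median of 72.5 (11.2 to 149), 32.1 (7.11 to 148) and 53.6 (8.03 to 123). All 3 ranges overlapped widely, and each library held members of both kinds. The effector sum exceeded the central sum in 11 of 81 young members (13.6%, 6.98 to 23.0%), 53 of 68 aged members (77.9%, 66.2 to 87.1%) and 20 of 38 aged+AA members (52.6%, 35.8 to 69.0%). Without mixed members the shares were 13.8%, 75.4% and 51.4%. Among Foxp3- cells they were 4.69%, 49.4% and 33.0%. Since the lists differ in length and level, equality of the sums has no meaning of its own, and the share only describes how the members spread along a range.

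**Figure D4:**
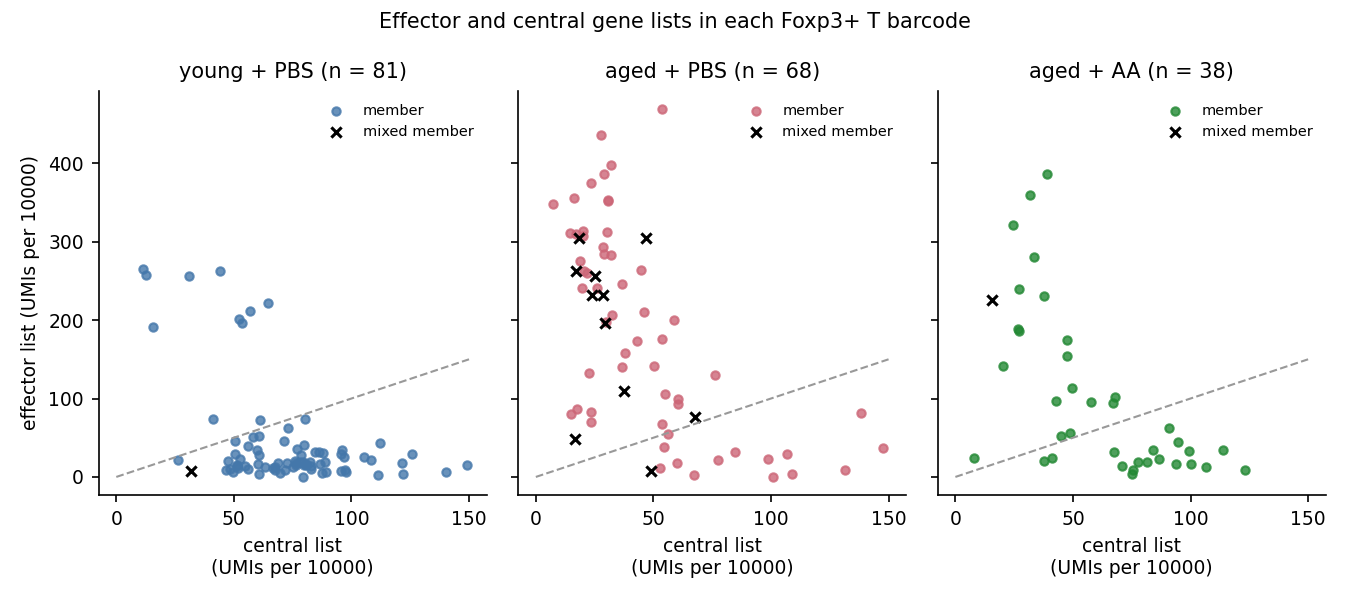
Each point is 1 Foxp3+ T barcode, with its central list UMIs per 10000 on the x axis and its effector list UMIs per 10000 on the y axis, one panel per library; crosses are mixed members and the dashed line marks equal sums. The points above the line are 11 of 81 for young, 53 of 68 for aged and 20 of 38 for aged+AA members, and a separate upper group is visible in the young panel.

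Pairs of genes gave the same picture. Of 81 young members 59 held Ccr7 without S100a4, 5 held S100a4 without Ccr7 and 5 held both. Ccr7 alone of the pair was held by 16 aged members, S100a4 alone by 38 and both by 8, and the aged+AA counts were 22, 12 and 0. S100a4 RNA was thus seen mostly in members without a Ccr7 UMI in the aged and aged+AA libraries. S100a4 was seen in 12.3%, 67.6% and 31.6% of members, and in 8.85%, 58.7% and 28.0% after thinning to 1000 UMIs, against 1.56%, 8.95% and 1.69% of B barcodes. Ccr7 was seen in 79.0%, 35.3% and 57.9%, and in 38.0%, 14.1% and 28.7% after thinning. Helios RNA accompanied both states: of 41 young members with an Ikzf2 UMI 32 also held Ccr7 and 8 held S100a4, and of 55 aged ones 15 held Ccr7 and 41 held S100a4. In the aged+AA library, 13 of 24 held Ccr7 and 10 held S100a4.

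With all members counted, identity genes were split evenly between aged and young. Of 20 measured, 10 lay on each side of the median gene, 7 were past 1.5-fold higher and 5 lower, and the list median was -0.02. Without mixed members the split was uneven: 13 of 19 lay above the median gene, 7 past 1.5-fold higher and 2 lower, with a median of 0.21. Ikzf2 was higher in aged members (ratio 1.96, 1.60 to 2.43, and 2.35 without mixed members). After thinning, the young, aged and aged+AA shares of members with an Ikzf2 UMI were 23.9%, 53.6% and 34.6%. Nrp1 at 76.2, 181 and 99.1 CPM had a ratio of 1.91 (1.21 to 3.09), Nt5e at 25.4, 138 and 71.6 CPM one of 4.35 (2.13 to 10.02), and Tnfrsf1b, the gene of TNF receptor 2, at 36.7, 133 and 27.5 CPM one of 2.90. Itgae, the CD103 integrin chain that binds epithelial E-cadherin, had 1, 41 and 6 UMIs. Lower in aged members were Il2ra (ratio 0.507, 0.301 to 0.843), Gpr83 at 90.3, 20.4 and 16.5 CPM (0.181, 0.0721 to 0.402, and 0.276 without mixed members) and Tnfrsf4 (0.616, 0.475 to 0.797). Izumo1r (0.975), Tnfrsf18 (0.999), Capg (1.45) and Lrrc32 (0.781) stayed within 1.5-fold. Ctla4, with 0.848 (0.710 to 1.01), had 1.05 without mixed members. In Foxp3- cells the same list had a median of 1.04.

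In aged+AA over aged members 15 of 20 identity genes lay below the median gene, 9 past 1.5-fold lower and 2 higher. The list median was -0.52, or -0.73 without mixed members, and -0.35 in Foxp3- cells. Tnfrsf18 had a ratio of 0.487 (0.314 to 0.733), Nrp1 of 0.558 (0.313 to 0.946), Icos of 0.562, Tnfrsf1b of 0.212, Ctla4 of 0.680 (0.527 to 0.870) and Ikzf2 of 0.685 (0.547 to 0.852). Without mixed members Ctla4 had 0.567, Ikzf2 0.572 and Tnfrsf1b 0.326 (0.0974 to 0.866). Il2ra (1.18) and Izumo1r (1.19) lay above the median gene with intervals that are wide at 15 to 61 aged+AA UMIs. Of the suppressive effectors 6 of 9 measured genes lay above the median gene in aged over young members (median 0.72, 5 past 1.5-fold higher and 1 lower). All 9 lay below it in aged+AA over aged members (median -0.53, 4 past 1.5-fold lower). Lgals1 at 463, 1199 and 1046 CPM had ratios of 2.08 and 0.889, and 2.64 and 0.658 without mixed members. Tgfb1, the gene of the suppressive cytokine TGF-beta 1, at 67.8, 145 and 99.1 CPM had an aged over young ratio of 1.72. Fgl2, a secreted fibrinogen-like effector, had 0, 22 and 4 UMIs. With the young count set to the floor of 3 it was 5.32-fold higher in aged members (exact 95% lower limit 3.97). Without mixed members 10 aged UMIs of Fgl2 were left, and these values were 3.56 and 2.39. Areg at 62.1, 45.9 and 27.5 CPM rested on 22, 18 and 5 UMIs.

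Genes of interleukin-2 and STAT5 signalling lay lower in aged members, with 10 of 13 below the median gene, 8 past 1.5-fold lower and none higher (median -0.68, and -0.39 without mixed members). Among members with at least 2 Foxp3 UMIs this list median was 0.02. For aged+AA over aged 11 of 13 lay above it, 4 past 1.5-fold higher and none lower (median 0.48). Socs1, a feedback inhibitor of cytokine signalling, stood at 45.2, 33.2 and 105 CPM, a ratio of 3.22 (1.51 to 7.08) for aged+AA over aged. Jak1, the kinase shared by cytokine receptors of this family, had ratios of 0.642 and 1.46, and Il2rb 0.683 and 1.01. Pim1, a survival kinase gene induced by cytokines, went the other way in aged over young, at 782, 1413 and 1316 CPM (ratio 1.45).

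Immediate early and NF-kB feedback genes, which switch on soon after a stimulus, lay lower in aged members, with 22 of 25 below the median gene, 14 past 1.5-fold lower and 1 higher (median -0.68). In aged+AA over aged members 19 of 25 lay above it, 10 past 1.5-fold higher and 2 lower (median 0.48). Dusp2, a phosphatase that switches off MAP kinases, stood at 601, 148 and 468 CPM, with ratios of 0.197 (0.145 to 0.265) and 3.22 (2.28 to 4.58). Junb, an AP-1 subunit, had 0.645 and 1.77, Nfkbia, which encodes the NF-kB inhibitor, 0.601 and 1.46, and Zfp36l2 0.569 and 1.49. Cd69, an early activation marker that retains cells in tissue, had 0.549 and 2.29, and 0.750 and 1.75 without mixed members. Tnfaip3, the gene of the deubiquitinase A20, stayed near the median gene at 0.914 and 1.07. Heat shock genes followed the same order, with 9 of 10 below the median gene in aged over young (median -0.70, 8 past 1.5-fold lower) and 9 of 10 above it in aged+AA over aged (median 0.44). Hsp90ab1, a chaperone gene, stood at 1267, 936 and 1442 CPM and Hspa8, a constitutive Hsp70 gene, at 1389, 1099 and 1211 CPM. Foxp3- cells shared these directions, with medians of -0.22 and 0.40 for immediate early genes and -0.57 and 0.34 for heat shock genes.

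Interferon response genes stood higher in aged members, with 29 of 30 above the median gene, 24 past 1.5-fold higher and none lower (median 0.92). This list moved with the mixed members: without them 23 of 26 lay above the median gene, 13 past 1.5-fold higher and 2 lower (median 0.60). Ifi27l2a stood at 1629, 5004 and 2455 CPM, with ratios of 2.46 and 0.5001, and 2.64 and 0.414 without mixed members. Rnf213 at 36.7, 158 and 27.5 CPM had 3.46 and 0.177. Isg15, a ubiquitin-like protein, had 5, 51 and 6 UMIs, 19 of the 51 from 1 aged member. Ifitm3 had a ratio of 27.6 for aged over young with all members and 0.874 without the mixed ones. In aged+AA over aged members 28 of 30 interferon genes lay below the median gene, 20 past 1.5-fold lower and 1 higher (median -0.95, and -0.50 without mixed members). S100a11, Rora, Bach2 and Isg15 were chosen for mention after their values had been seen.

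Homing receptors were mixed, with 11 of 16 above the median gene in aged over young members (median 0.55, and 0.36 without mixed members), 8 past 1.5-fold higher and 3 lower. Itga4, the alpha-4 integrin chain for gut and inflamed endothelium, stood at 124, 390 and 512 CPM, with ratios of 2.52 and 1.34, and was one of the genes that were highest in the aged+AA library. Itgal, the LFA-1 chain, had 2.27 and 0.468, Itgb7 1.27 and 0.972, the P-selectin ligand gene Selplg 1.11 and 0.945, and S1pr1, the receptor for exit from lymphoid organs, 0.636 and 1.12. Cell cycle genes lay lower in aged members, with 9 of 9 below the median gene and 5 past 1.5-fold (median -0.78). Without mixed members 7 of 9 lay below it (median -0.66). Of the list's abundant genes, the highest young member held 166 of 477 young UMIs of Hmgb2 and 95 of 335 of H2afz. For Mki67, Birc5, Top2a and Stmn1 the highest young member held 23 of 23, 16 of 17, 14 of 16 and 35 of 51. The highest shares for Mcm6, Tubb5 and Pcna were 9 of 18, 38 of 133 and 3 of 42. For 3 histone genes outside the list the highest young member held nearly all young UMIs: 171 of 197 of Hist1h2ap, 67 of 74 of Hist1h2ae and 65 of 65 of Hist1h1b. Reads of near-identical histone genes may have been split between copies. Of 5 measured genes of the inhibitory receptor list 1 was past 1.5-fold higher in aged members. In the T helper list (16 genes) the 4 measured genes were Ccl5, Gzma, Nkg7 and Ccl4, with a median of -0.14. None of these is a T helper cytokine, whose genes had too few UMIs.

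Genes of ascorbate transport and ascorbate-dependent dioxygenases showed small differences. Of 21 measured (27 listed), 6 lay above and 15 below the median gene in aged over young members (median -0.17), 1 past 1.5-fold higher and 5 lower, shares near or below those of all genes. For aged+AA over aged 13 lay above and 8 below (median 0.11), 3 past 1.5-fold each way. P4ha1 had ratios of 0.980 and 1.05, the histone demethylase genes Kdm6a 0.980 and 1.13 and Kdm5a 0.864 and 1.77 (1.00 to 3.11). Kdm7a, a histone demethylase gene outside this list, was named by the size of its ratio without mixed members. With all members it had 24, 25 and 26 UMIs, or 67.8, 63.8 and 143 CPM. Its aged+AA over aged ratio was 2.29, and 4.23 (1.98 to 9.84) without mixed members. Foxp3 locus regulators and cofactors lay at the median gene, with 13 of 26 above it in aged over young (median -0.02; 4 past 1.5-fold higher and 1 lower) and 11 of 26 in aged+AA over aged (median -0.07; 3 higher and 7 lower).

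A rule of size also named genes regardless of list, ranking genes with at least 50 UMIs on whichever interval bound lay closest to 1. With all members, the genes highest in aged over young were myeloid (Lyz2, Chil3, Alox5ap, S100a8, S100a9, Apoe, Il1b and Wfdc17). Lyz2 had 1, 1412 and 0 UMIs, and its aged level was 3601 CPM with all members and 96.2 CPM without the mixed ones. Without mixed members the highest were S100a6, S100a4, AW112010, Itgb1, Cldnd1, Fam129a, Maf and Nt5e. The lowest in that setting were Hist1h2ap, Hist1h2ae, Hist1h1b, Txnip, Dusp2, Ly6c1, Igfbp4 and Satb1. Txnip, an inhibitor of glucose uptake and of thioredoxin, stood at 1259, 314 and 573 CPM with all members, with ratios of 0.200 and 1.86. Ly6c1, a surface antigen of T-cell subsets, had 61, 9 and 13 UMIs. Itm2a stood at ratios of 0.137 and 5.34. In aged+AA over aged members without the mixed ones, Dusp2, Igfbp4, Bcl2, Kdm7a, Klf2, Itm2a and Srsf7 were among the highest. Cxcl2, S100a6, Ifi27l2a, Rnf213, Baz1b, Ptms, Pglyrp1 and Trp53inp1 were the lowest. Fam129a had aged over young ratios of 4.35 in members and 8.80 in Foxp3- cells, Cldnd1 5.62 and 1.39, and AW112010 3.38 and 3.40.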

How the data were processed

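Single-cell 3' RNA libraries (10x v3 kit) of blood mononuclear cells were made by the authors, who deposited raw UMI counts as 1 matrix of genes by unfiltered barcodes per library. The submitters' processing notes list Cell Ranger, Seurat 3.1.0 and mm10, without filters, and no cell annotation was used. Of the 32285 gene IDs, 99.61% matched GENCODE M21.

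Barcodes were filtered as stated above in Python 3.11.15 (numpy 2.4.6, scipy 1.17.1) and members' raw counts summed per library. CPM ratios took genes with at least 50 UMIs over the 3 libraries, list medians genes with at least 20, adding 0.5 to each count. Intervals were exact binomial or conditional binomial (Poisson for CPM) at 95%. A count of 0 was set against 3 counts per library. Free RNA came from barcodes ranked 45001 to 90000. Members and counterparts were tested with edgeR 4.0.16 in R 4.3.3, gate genes and Cd4, which chose the counterpart, left out of calls. Both steps were tested on simulated data. Doublets were marked by Scrublet (scanpy 1.11.5; 371, 445 and 486 barcodes, 6 aged members among them) and left in.

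The members, lists and tests were chosen with earlier results of these data known. Named genes were the top 10 each way by edgeR p, the top 8 each way by ratio bound, all measured identity genes, and in other lists the 4 with most UMIs and the 2 with the largest bound each way. Rankings left out gate genes, clone-named genes, Y-linked genes with Xist and Tsix, mitochondrial, ribosomal and haemoglobin genes, and genes of antibodies and T-cell receptors. Alternatives changed the gate, scaling, filters, counterpart, test and libraries. Some genes that the rule names are not reported here.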

Additional observations from a re-analysis of the deposited data

Results flagged for a closer look

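Foxp3 UMIs also appeared in T barcodes with Cd8a or Cd8b1 UMIs, which the members leave out. Their number was 16 of 2240 Cd8 T barcodes in the young library (0.714%), 9 of 1014 in the aged (0.888%) and 5 of 2602 with AA (0.192%), against at most 0.0228% of B barcodes. Of these 30 barcodes 17 held a single Cd8 UMI and 22 an Ikzf2 UMI. An Ikzf2 UMI was seen in 9.08%, 11.9% and 9.90% of young, aged and aged+AA Cd8 T barcodes without Foxp3. The Foxp3+ Cd8 barcodes had medians of 7376.5, 8926 and 10668 UMIs, against 3632, 4599.5 and 3840.5 in members. A Cd4 UMI was held by 5 young, 6 aged and 1 aged+AA of them.

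Some genes lay on different sides of the median gene in members and in Foxp3- CD4 T cells of the same libraries, both without mixed barcodes. These differences were not tested, since each group is 1 library. For aged over young, Bcl2 had a centred ratio of 0.303 in members and 1.11 in Foxp3- cells. Tnfrsf4 (OX40) had 0.760 in members and 2.19 in Foxp3- cells. Cd27 had 1.84 in members and 0.856 in Foxp3- cells. Ly6e, an interferon-induced surface protein gene, had 1.26 in members and 0.860 in Foxp3- cells. The histone genes Hist1h1b and Hist1h2ae had 0.115 and 0.116 in members and 4.07 and 1.46 in Foxp3- cells, with most young member UMIs in 1 barcode. For aged+AA over aged, Hmgb2 had 0.692 in members and 1.08 in Foxp3- cells, and Shisa5 had 0.783 in members and 1.10 in Foxp3- cells.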

How the results depend on the processing

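Depth limits these results: 38 aged+AA members hold 181665 UMIs, genes under 50 UMIs have wide intervals, and each group is 1 library. No paired analysis was possible because the groups hold 1 library each. Of 22 alternative shares 19 moved by less than their interval. Of 2282 gene values 2050 did and 11 changed side of the median gene. Of 336 alternative list medians 243 counted as unchanged, 87 as moved, and 6 changed sign. Of 60 numbers past the fold 20 moved, and of 32 numbers called by edgeR 14 did. The causes of the moves were not tested. The exceptions among shares were those of all kept barcodes (ratios 0.753 and 0.487) and with Cd4 (3.06). Numbers past the fold, as aged over young higher and lower and aged+AA over aged higher and lower, were 182, 214, 118 and 185 with at least 2 Foxp3 UMIs, 4142, 3017, 2944 and 4301 with no UMI minimum, 1193, 1031, 802 and 1191 from 20 UMIs, and 219, 202, 75 and 162 at 2-fold. Without centring the first pair was 861 and 244. Without any Lyz2, S100a8 or S100a9 UMI and with at most 1% haemoglobin, which left 13 aged members, 268 genes were higher in aged over young and 211 lower in aged+AA over aged. Numbers called by edgeR were 142 higher with 2 Foxp3 UMIs, 115 and 64 with counterparts matched in UMIs, 303 lower with counterparts with or without Cd4, 125 and 87 under the strict Lyz2 limit, 9 and 3 without the library block, 331 lower without a count filter and 112 and 97 by DESeq2 1.42.0. Leaving out 1 library gave 101 to 282 higher and 68 to 200 lower. With 2 Foxp3 UMIs the interleukin-2 list (aged over young) had 0.0225, the T helper list (aged+AA over aged) -0.81 and Il2rb 1.19. At 5% mitochondrial UMIs the T helper list had -1.43 and with no UMI minimum -0.41. Under the strict Lyz2 limit the cell cycle list had 0.11, the T helper list -1.33, Il2rb 1.00, Vim 0.895, Ifitm3 0.394, Hmgb2 1.36, Cxcl2 0.556 and Samhd1 1.00. Without mixed members Ifitm3 had 0.874, Plac8 0.971 and Cxcl2 0.739, and Cxcl2 had 0.728 without Scrublet doublets.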
